A study of Mus musculus with 43 samples.

Results

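Asymmetric dimethylation of arginine 3 of histone H4, written H4R3me2a, was mapped by CUT&Tag in wild-type (WT) mouse testis cells at postnatal day 7 (P7) and day 14 (P14). Every WT peak list of this mark was taken, 3 from P7 and 3 from P14, which is 6 of the 43 samples of the series and 6 of its 31 WT CUT&Tag lists. The mice were C57BL/6J. The tubules had been freed of interstitial cells by collagenase, split into single cells by trypsin and passed through a strainer against Sertoli cells. The P7 samples are labelled as spermatogonia. The P14 samples are titled as spermatogonia too, while their cell type field says spermatocyte, so the 2 ages may hold different mixtures of germ cells. The treatment text of the series describes tamoxifen injections for WT and Prmt1-deleted animals together, and it does not say whether the WT animals of the CUT&Tag lists were injected. The methods of the study speak of biological triplicates in general, but the labels do not tie these lists to separate animals, so part of the spread between them may be technical. In such bulk samples a larger share of marked cells and more mark per cell cannot be told apart.

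H4R3me2a is written mainly by PRMT1, a type I protein arginine methyltransferase, and is known as a mark of active chromatin that favours acetylation of neighbouring histone tails. The same arginine carries the symmetric form H4R3me2s when PRMT5 writes it, and that form is associated with repression. In CUT&Tag, an antibody tethers a Tn5 transposase that cuts and tags DNA beside the mark, and a peak is a place where the tags pile up above the local background. In the first wave of mouse spermatogenesis, testes of the earlier age hold spermatogonia as their most advanced germ cells, while those of the later age also hold spermatocytes in meiosis.

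The sequences below come from places that the comparison turns on. They are 300 bp windows around the summit (the highest point of a peak) or, for Sycp2, Sycp3 and Trip13, RefSeq promoter windows, all on GRCm38 (mm10) and written along the strand named. Bases annotated as untranslated were left out and the longest remaining stretch is shown. Capitals mark a match, on either strand, to the GC box (GGGCGG), the CCAAT box (CCAAT), the E-box (CACGTG), the cyclic AMP response element (TGACGTCA) or the core of ETS sites (CCGGAAG). The summit of Aida and Brox, at chr1:183299176-183299475 on the plus strand in an intron of Aida, had a peak in all 6 lists. The summit of Zc3h7a, at chr16:11143997-11144296 on the minus strand, also had one in all 6, and lies in an exon that overlaps a small RNA gene, Gm23935. N6amt1, at chr16:87354253-87354491 on the plus strand, and the shared promoter of Hmmr and Nudcd2, at chr11:40733632-40733666 on the minus strand, had a peak in every P14 list and in no P7 list. Dpp4, at chr2:62343212-62343511 on the minus strand and in an intron, had the reverse pattern. The meiotic promoters are Sycp2 at chr2:178407686-178407908 on the minus strand, Sycp3 at chr10:88459337-88459568 on the plus strand and Trip13 at chr13:73937894-73938017 on the minus strand, and these 3 were chosen for printing after their values were seen. The Sycp3 stretch lies upstream of the start, while the P14 summits lay 97, 153 and 186 bp downstream of it, so no summit is within the printed bases. The Trip13 summits lay at -176, 199 and 323 bp, of which the first alone is within them. The Sycp2 summits lay at -169, -57 and 185 bp, and the last is outside the printed bases. The summit of Hmmr and Nudcd2, at position 40733782, also lies outside the 35 bp printed for them.
Aida and Brox: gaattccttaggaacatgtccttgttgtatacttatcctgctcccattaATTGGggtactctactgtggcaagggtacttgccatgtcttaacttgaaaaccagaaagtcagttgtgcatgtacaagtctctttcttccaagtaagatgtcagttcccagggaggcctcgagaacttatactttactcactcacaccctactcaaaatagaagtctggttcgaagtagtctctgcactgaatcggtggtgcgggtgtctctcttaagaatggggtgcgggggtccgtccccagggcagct
Zc3h7a: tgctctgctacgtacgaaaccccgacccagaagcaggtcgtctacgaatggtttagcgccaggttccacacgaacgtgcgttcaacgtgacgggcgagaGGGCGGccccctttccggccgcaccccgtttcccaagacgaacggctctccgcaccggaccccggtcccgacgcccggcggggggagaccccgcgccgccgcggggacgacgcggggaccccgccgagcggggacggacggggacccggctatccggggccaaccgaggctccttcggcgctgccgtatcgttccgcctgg
N6amt1: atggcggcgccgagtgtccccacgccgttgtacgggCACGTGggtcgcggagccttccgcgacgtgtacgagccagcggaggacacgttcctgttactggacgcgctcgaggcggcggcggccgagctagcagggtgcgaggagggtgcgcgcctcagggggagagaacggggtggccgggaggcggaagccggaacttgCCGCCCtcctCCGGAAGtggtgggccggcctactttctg
Hmmr and Nudcd2: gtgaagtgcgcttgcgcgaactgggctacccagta
Dpp4: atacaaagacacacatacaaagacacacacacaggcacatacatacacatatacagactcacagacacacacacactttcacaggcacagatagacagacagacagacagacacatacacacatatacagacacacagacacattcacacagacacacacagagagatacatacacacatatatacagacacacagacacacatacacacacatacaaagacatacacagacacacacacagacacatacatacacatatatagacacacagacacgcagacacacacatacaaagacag
Sycp2: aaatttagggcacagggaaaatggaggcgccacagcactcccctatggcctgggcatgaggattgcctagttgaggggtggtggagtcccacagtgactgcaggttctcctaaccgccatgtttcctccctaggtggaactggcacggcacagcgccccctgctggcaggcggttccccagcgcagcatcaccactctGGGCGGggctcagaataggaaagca
Sycp3: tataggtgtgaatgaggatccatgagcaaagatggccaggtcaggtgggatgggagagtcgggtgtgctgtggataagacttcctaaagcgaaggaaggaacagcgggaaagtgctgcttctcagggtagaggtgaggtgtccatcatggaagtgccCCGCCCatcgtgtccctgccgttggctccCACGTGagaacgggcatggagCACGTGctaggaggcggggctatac
Trip13: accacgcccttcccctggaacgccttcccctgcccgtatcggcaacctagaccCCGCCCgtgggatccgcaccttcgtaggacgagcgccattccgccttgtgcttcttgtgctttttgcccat
The N6amt1 window is rich in CpG and holds an E-box, a GC box on the other strand and an ETS core. The Dpp4 window is a CA-rich simple repeat, all 300 of its bases being masked as repeat in the genome.

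The P14 lists were longer than the P7 lists. On chromosomes 1 to 19, X and Y, the P7 lists held 16802, 18538 and 17190 peaks, and the P14 lists held 39453, 44695 and 40248. The ages did not overlap, and the mean rose 2.37-fold, from 17510 ± 911 to 41465 ± 2825 (SD, n = 3 each, exact permutation test, two-sided p = 0.1). With 3 lists against 3 this test has 20 arrangements and cannot give a p below 0.1, so no difference between the ages here can pass 0.05. Unless another p is given, each difference below in a measure given as 3 values, or as a mean ± SD, of the H4R3me2a lists at each age is one whose 3 P7 values did not overlap the 3 P14 values, which gives p = 0.1 in that exact permutation test. The values of single genes, the shares of the other marks and the counts of regions and genes have no such test.

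**Figure D1:**
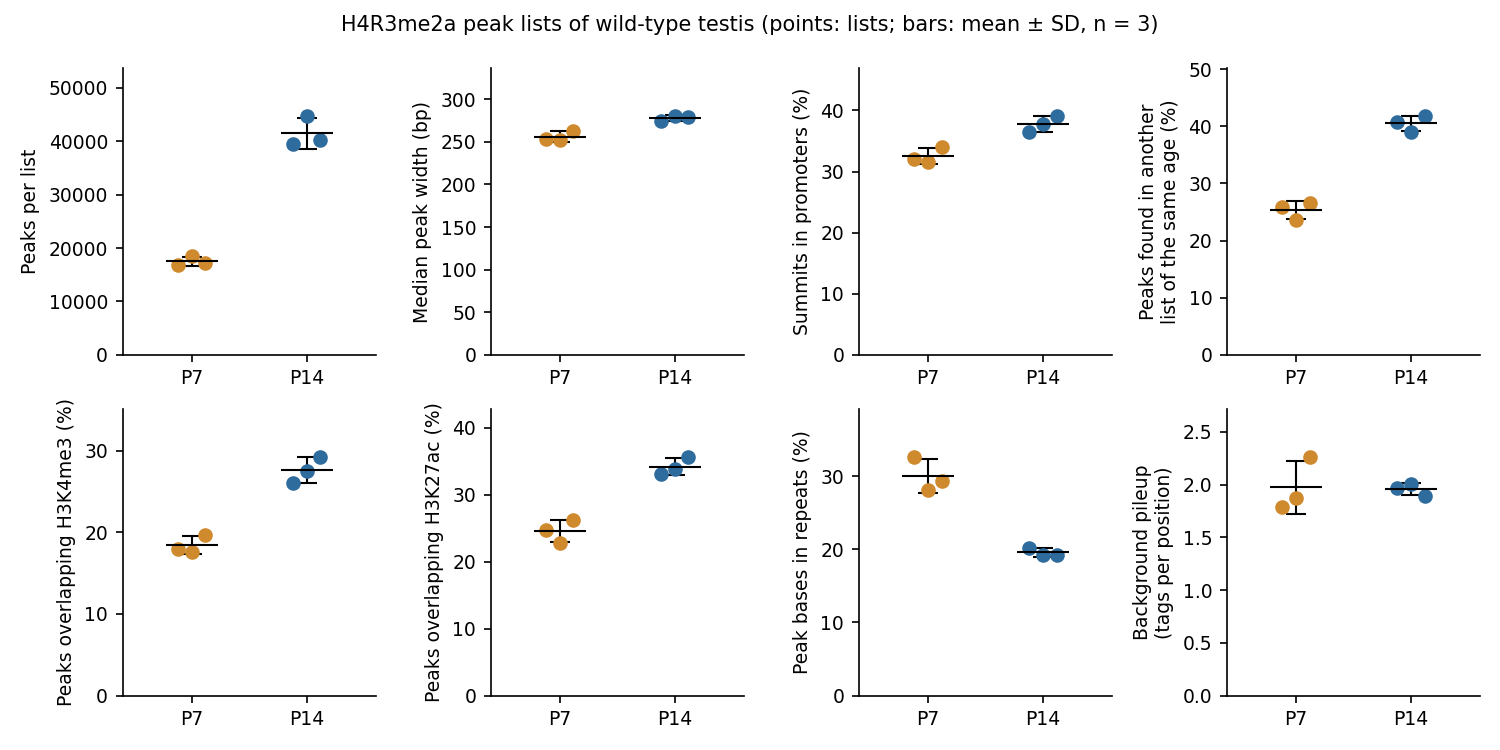
Values of each H4R3me2a list at P7 and P14, 1 point per list, with the age on the horizontal axis and the measure and its unit on each vertical axis; lines mark the mean and bars the SD of 3 lists. The 3 P14 lists lie above the 3 P7 lists in peak number, width, promoter share, recurrence and overlap with H3K4me3 and H3K27ac, below them in repeats, and within their range in background pileup.

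Depth at background did not move with age. Tag counts are not given in the lists, but the pileup at the background, the lowest local rate that the peak caller used, could be solved from each list's fold enrichment and p-value. It was 1.79, 1.88 and 2.26 tags at P7 and 1.97, 2.01 and 1.89 at P14 (exact permutation p = 1). The lowest summits held 6 to 7 tags, which is 2.99 to 3.36 times the background, so a place without a listed peak may carry the mark below that level. At P7 3185, 2090 and 1932 peaks stood at least 6 times above the background, and at P14 9571, 9346 and 11164 did. This is a 4.17-fold difference, larger than the 2.37-fold difference in all peaks. Peaks with a q-value of at most 0.01 numbered 1660, 1573 and 2242 at P7 and 6732, 9587 and 8451 at P14, which is 8.49% to 13.0% and 17.1% to 21.4% of the lists.

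Over the whole lists, peaks were also wider at P14. The median width was 253, 252 and 263 bp at P7 and 274, 280 and 279 bp at P14. Among peaks with a q-value of at most 0.01 the ages overlapped, at 367, 345 and 337 bp and at 352, 366 and 363 bp (exact permutation p = 0.4). The share of peaks at 200 bp, the narrowest width in the lists, fell from 27.4% ± 2.86 to 21.1% ± 0.826. Peaks over 1000 bp numbered 78, 69 and 98 at P7 and 229, 359 and 301 at P14. The change was larger near genes. Peaks at promoters had a median width of 259 ± 5.69 bp at P7 and 302 ± 6.81 bp at P14, and those elsewhere 254 ± 5.86 bp and 266 ± 2.0 bp. The median height of promoter peaks rose from 4.75 ± 0.311 to 5.45 ± 0.361 times the background, while peaks elsewhere stood at 4.75 ± 0.311 and 4.60 ± 0.138 (exact permutation p = 0.6). Heights are whole tag counts over the background of each list. The promoter medians of the ages were barely apart, at 5.04 in the highest P7 list and 5.08 in the lowest P14 list. The mark covered 0.192% ± 0.00824 of the genome at P7 and 0.50% ± 0.0413 at P14.

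The place of the peaks shifted towards promoters. A promoter peak is one whose summit lies within 3000 bp of an annotated transcript start of any gene type, coding or not (GENCODE vM21). This area takes up 15.1% of the genome. Promoter peaks made up 32.0%, 31.6% and 34.0% of the P7 lists and 36.5%, 37.7% and 39.1% of the P14 lists, a rise of 5.2 percentage points. Introns fell from 34.2% ± 0.305 to 31.6% ± 0.939 and distal intergenic places from 30.3% ± 1.05 to 27.6% ± 0.409. Exon shares overlapped, at 2.92% ± 0.205 and 3.00% ± 0.0701 (exact permutation p = 0.6). With each list held to its 16802 strongest peaks, the rise in the promoter share was 16.1 points, and among peaks with a q-value of at most 0.01 it was 24.1 points.

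The shift was sharpest next to the start itself. Here only starts of protein-coding genes were used. Summits less than 200 bp downstream of the nearest such start were 5.17%, 5.0% and 5.82% of the P7 lists and 8.82%, 9.42% and 10% of the P14 lists. Within 500 bp on either side the share rose from 13.4% ± 0.875 to 20.5% ± 1.33. The median distance to the nearest protein-coding start was 13856 ± 915 bp at P7 and 11707 ± 646 bp at P14.

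**Figure D2:**
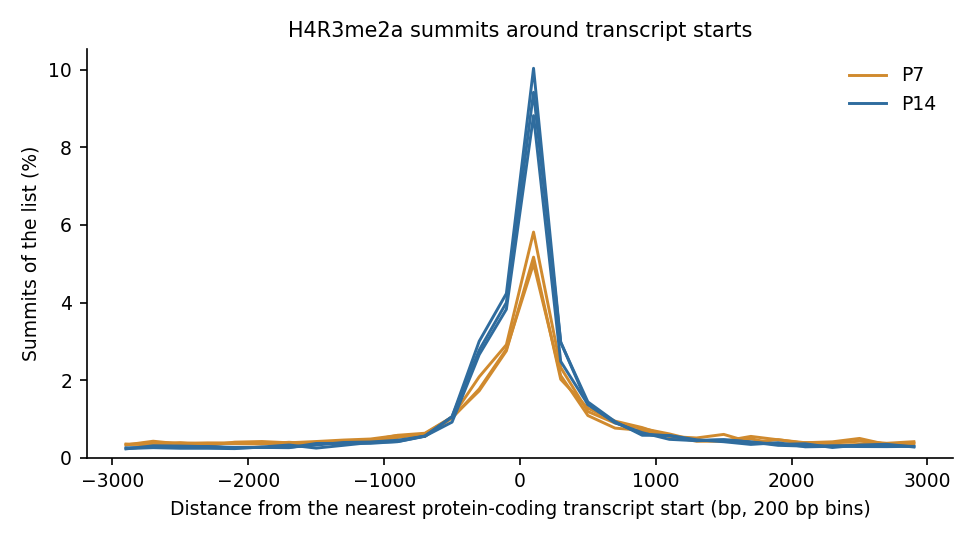
Share of summits of each list (vertical axis, %) in 200 bp bins of distance from the nearest protein-coding start (horizontal axis, bp), 1 line per list, coloured by age. The P14 lines lie above the P7 lines beside the start, where the bin just downstream holds 8.82% to 10% of P14 summits and 5.0% to 5.82% of P7 summits.

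The sequence under the peaks changed with their place. Repeats made up 32.6%, 28.1% and 29.3% of the peak bases at P7 and 20.2%, 19.3% and 19.2% at P14. Among peaks with a q-value of at most 0.01 the gap was wider, with means of 44.0% at P7 and 18.6% at P14. Median GC rose from 50.5% ± 0.484 to 51.9% ± 0.382, and the ratio of observed to expected CpG from 0.198 ± 0.00102 to 0.232 ± 0.010. Overlap with peaks of H3K4me3, the mark of active and poised starts, rose from 18.4% ± 1.10 to 27.6% ± 1.61, and overlap with H3K27ac, the mark of active promoters and enhancers, from 24.6% ± 1.71 to 34.2% ± 1.29. Each list was set against the H3K4me3 or H3K27ac peaks of its own age. Those grew as well, H3K27ac regions from 0.20% to 0.469% of the genome and H3K4me3 regions from 0.629% to 0.769%, and the part of this growth in the overlap was not tested. With lists of equal length the rises were 0.111 in the CpG ratio, 26.5 points in the H3K4me3 overlap and 26.3 points in the H3K27ac overlap. Among peaks with a q-value of at most 0.01 they were 0.284, 16.2 points and 5.93 points.

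Most listed peaks did not recur, and over the whole lists they recurred more at P14. Of the peaks in a list, 25.9%, 23.6% and 26.6% overlapped a peak of another P7 list, and 40.7%, 39.1% and 41.8% overlapped one of another P14 list. The size of this difference, 15.1 points, depends on the number of lists. It fell to between 3.31 and 5.17 points when 1 P14 list was left out. Leaving out 1 P7 list raised it to between 22.1 and 24.0 points. Between any pair of lists, 15.6% to 18.6% of peaks were shared within P7 and 27% to 32.1% within P14. A single P14 list took in 26.2% to 31.7% of the peaks of a P7 list, while a P7 list took in 11.1% to 13.0% of the peaks of a P14 list. The P14 lists cover more of the genome, and the part of this in the overlap was not tested. Promoter peaks were the more repeatable ones at P14, where 39.7% to 48.0% of them and 19.4% to 22.0% of the peaks elsewhere were shared by a pair. With lists of 16802 peaks each, recurrence was 25.5% at P7 and 45.2% at P14. Among peaks with a q-value of at most 0.01 it was 48.0%, 47.2% and 38.4% at P7 and 55.3%, 47.2% and 51.4% at P14 (exact permutation p = 0.2), so the difference fell to 6.8 points.

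Merging the peaks of all 6 lists gave 122011 regions, and 99191 of them had a peak in at most 1 list of each age. A region was called present at an age when at least 2 of its 3 lists held a peak. In this sense 3844 regions were kept between the ages, 16812 were gained at P14 and 2164 were lost. The kept regions are 64.0% of the 6008 regions present at P7 and 18.6% of the 20656 present at P14. At the extremes, 1361 regions had a peak in all 6 lists, 2810 in every P14 list and no P7 list, and 96 in every P7 list and no P14 list.

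The gained regions lay more often at promoters than the lost ones. Promoters held 45.3% of kept, 51.8% of gained and 27.9% of lost regions, and 72.3% of those with a peak in 3 P14 and 0 P7 lists. Median widths were 793 bp for kept, 511 bp for gained and 459 bp for lost regions. Regions whose observed-to-expected CpG exceeded 0.6 made up 32.5% of kept, 32.6% of gained and 8.36% of lost ones. A peak of H3K4me3 in at least 2 P7 lists was present at 43.0% of kept, 37.2% of gained and 6.33% of lost regions. In the gained regions with 3 P14 and 0 P7 lists, H3K4me3 was at 63.3% at P7 and 67.0% at P14, while H3K27ac was at 37.4% and 59.1%. Over all regions H3K4me3 was at 11.3% and 12.9%, and H3K27ac at 5.74% and 10.4%, so H3K27ac also rose over all regions together. It did not rise in every set. In regions with a peak in all 6 lists it went from 69.6% to 60.2%, and in kept regions away from promoters from 37.5% to 30.0%.

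Peaks of the 4 other arginine marks were also listed more often in the gained regions at P14. The asymmetric mark H3R2me2a was found at 4.65% of them at P7 and at 44.7% at P14, and H3R8me2a, also asymmetric, at 4.34% and 24.0%. H4R3me1 was found at 5.73% and 22.1%, and H4R3me2s at 6.78% and 21.9%. In the kept regions H3R2me2a was at 36.1% and 80.6%. The regions of H3R2me2a themselves covered 0.0623% of the genome at P7 and 0.480% at P14, and those of the other 3 marks grew too. Over all 122011 regions H3R2me2a was at 2.33% and then 15.0%, H3R8me2a at 2.66% and then 7.30%, H4R3me1 at 3.20% and then 6.86%, and H4R3me2s at 2.3% and then 6.67%. The lost regions also rose for H3R2me2a (4.62% to 20.9%), H3R8me2a (10.9% to 13.5%) and H4R3me2s (3.28% to 11.9%), and not for H4R3me1 (10.8% to 8.46%).

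Among the 7 motifs searched on both strands in 300 bp around each summit, the GC box had the widest gap between classes in percentage points, and CCGGAAG had a larger ratio of kept to lost. GGGCGG was in 46.2% of kept, 43.2% of gained and 13.4% of lost promoter regions, and in 35.7% of 32851 RefSeq promoters of that length. CCGGAAG, the core bound by ETS factors, was in 9.01%, 8.77% and 1.82%, and in 8.86% of the promoters. CCAAT was in 21.6%, 22.0% and 24.5%, against 37.4% of the promoters. CACGTG was in 5.63%, 6.61% and 4.97% (7.15% of promoters), and TGACGTCA in 0.689%, 0.770% and 0.166% (1.79% of promoters). The palindromic sites of NRF1 and BANP were in at most 1.03% of any class. The windows are centred on summits, while the promoter sequences lie mostly upstream of the start, so their shares are not matched in place. A match is a description of letters only.

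Places marked in every list were broader and higher at P14. In the 1361 regions with a peak in all 6 lists, the median covered width was 455, 441 and 479 bp at P7 and 575, 601 and 588 bp at P14. The median summit was 6.72, 6.39 and 6.63 times the background at P7 and 8.13, 8.46 and 8.97 times at P14, and 966 of the regions (71.0%) had a higher mean at P14. The 523 of these regions at promoters went from 399 ± 13.1 to 623 ± 39.5 bp, and 427 of them (81.6%) were higher. The 838 elsewhere went from 487 ± 19.9 to 565 ± 6.60 bp, and 539 (64.3%) were higher.

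Some of these shared places hold a peak whatever the antibody. Of the 1361 regions, 310 (22.8%) had a peak in all 25 WT lists of the 6 other marks. This was so for 344 of the kept regions (8.95%), 15 of the gained and 0 of the lost. Without those places, 405 promoter regions with a peak in all 6 lists went from 364 ± 7.94 to 599 ± 41.2 bp and from 5.60 ± 0.486 to 8.19 ± 0.701 times the background.

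Many promoters of protein-coding genes were marked at the later age and not at the earlier one. As for regions, a gene was called marked at an age when at least 2 of its 3 lists held a promoter summit. For genes this is a summit within 3000 bp of an annotated start of the gene itself. Of 21938 protein-coding genes, 2907 (13.3%) were marked at both ages, 7836 (35.7%) at P14 and not P7 (gained), and 448 (2.04%) at P7 and not P14 (lost). Of the gained genes, 1432 had a summit in 1 P7 list and 2 P14 lists, and 2229 in 1 P7 list and 3 P14 lists. Genes that share a promoter were counted separately. In all, 15.3% of genes were marked at P7 and 49.0% at P14, and 86.6% of the genes marked at P7 were still marked at P14. A summit in 3 P14 and 0 P7 lists was found for 1955 genes (8.91%), and one in 3 P7 and 0 P14 lists for 12 genes (0.0547%). No list held a promoter summit for 6482 genes, and 771 had one in all 6.

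**Figure D3:**
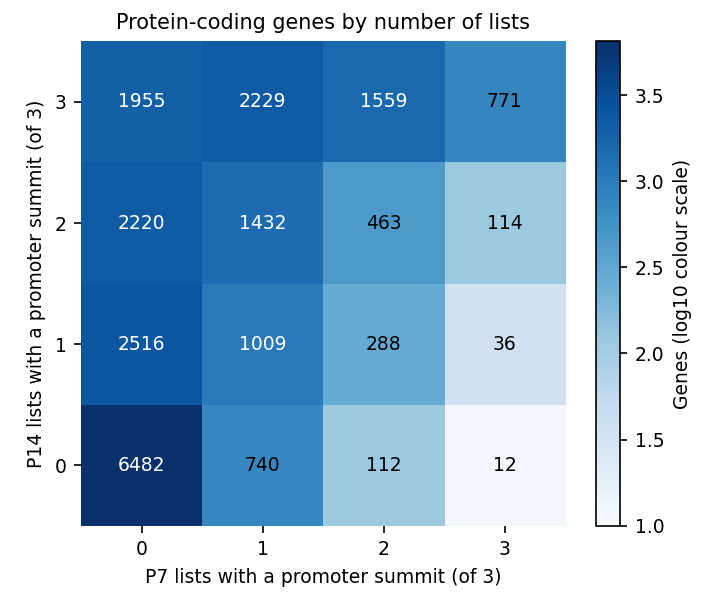
Number of protein-coding genes by the number of P7 lists (horizontal axis) and P14 lists (vertical axis) that hold a promoter summit, with the count printed in each cell and a log10 colour scale. The cell of 0 P7 and 3 P14 lists holds 1955 genes and the opposite cell of 3 P7 and 0 P14 lists holds 12.

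The promoters that ranked highest in all 6 lists were those of Aida and Brox, which share 1 summit, Zc3h7a, Asmt, Miga1, Plcb4, Gm10800, Phf21a, Slc45a1 and Gm45844. Enrichment over the local background at Aida and Brox was 14.1, 12.9 and 12.2 at P7 and 13.1, 12.5 and 10.8 at P14. At Zc3h7a, a CCCH zinc finger gene, it was 11.9, 11.5 and 13.8 at P7 and 13.9, 11.9 and 14.3 at P14. The ages overlapped in both. All 10 of these genes lie in regions with a peak in every one of the 25 lists of other marks, and 0% to 100% of their 300 bp windows was masked as repeat. Asmt, which encodes the last enzyme of melatonin synthesis, was at 0 to 0.10 TPM (transcripts scaled to a common total) in the P7 bulk RNA libraries. These highest places held a peak with every antibody of the series.

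The promoters that ranked highest among those with 3 P14 and 0 P7 lists lay close to their starts and, but for Tc2n, carried no masked repeat. N6amt1, a methyltransferase subunit, had an enrichment of 6.74, 7.55 and 7.25 at P14 and no listed peak at P7. Hmmr, a spindle-associated hyaluronan receptor, and Nudcd2 share a promoter with 6.40, 6.64 and 6.56. Clspn, a mediator of the replication checkpoint, had 5.30, 6.77 and 5.88. The ceramidase gene Acer3 had 5.52, 7.06 and 6.12, and the mitochondrial RNA regulator Fastkd1 5.41, 5.97 and 5.88. Tc2n had 6.07, 5.98 and 5.67, and R3hdm1 6.00, 7.45 and 5.56. Ahsa1, an activator of the HSP90 chaperone, and Vipas39, a vesicle trafficking gene, share a promoter with 5.23, 6.74 and 5.59. Since the absence of a P7 peak was part of the choice, these are descriptions. The 8 promoters of these 10 genes carried H3K4me3 at both ages, and 16 to 24 of the 25 lists of other marks had a peak there.

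Of the 12 genes with the reverse pattern, the 5 that ranked highest had values around the median enrichment of the P7 lists, which was 3.23, 3.13 and 3.07. Dpp4, a dipeptidyl peptidase, had an enrichment of 3.59, 3.13 and 2.76 at P7 and no listed peak at P14. The next were 1700125H20Rik with 2.80, 3.20 and 3.43, Cercam, a cell adhesion gene, with 2.78, 3.47 and 2.79, Prl2c3 with 3.31, 2.96 and 2.66, and Kirrel with 2.69, 3.11 and 2.87.

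The PRMT family itself was marked throughout at P14. All 9 members, Prmt1 to Prmt9 with Carm1 as the fourth, were marked at P14, 4 of them kept and 5 gained, where 49.0% of all genes were marked. The list also held Ndufaf7, an arginine methyltransferase of mitochondria outside the family, which was gained. Carm1, which writes asymmetric marks on histone H3, had an enrichment of 3.17, 3.87 and 2.90 at P7 and 4.20, 7.93 and 6.62 at P14, and the ages did not overlap. Prmt2, another type I member, had 3.17, none and 3.18 at P7 and 5.03, 4.72 and 4.49 at P14. Prmt1, the main writer of H4R3me2a, had 3.11, none and 3.23 at P7 and 3.74, 4.15 and 2.93 at P14, with overlap. Prmt9, a type II enzyme, had 3.61, none and 4.39 at P7 and 4.55, 4.85 and 4.02 at P14, with overlap. Prmt5, the writer of the symmetric mark, had no listed peak at P7 and 3.19 and 3.39 in 2 P14 lists. Of 13 genes that read or remove methylarginine, 3 were kept and 8 gained. Among them the Tudor protein gene Smndc1 had 3.00, 3.48 and 3.04 at P7 and 4.29, 4.94 and 3.38 at P14, with overlap, and Tdrd3, whose product binds H4R3me2a, 3.59, none and 3.37 at P7 and 4.04, 4.17 and 5.76 at P14.

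Like all genes, meiotic genes were marked more often at P14 than at P7. Of 24 genes of meiotic entry and recombination, 5 were kept, 13 gained and 0 lost, so 75.0% were marked at P14 and 20.8% at P7, against 49.0% and 15.3% of all genes. Meiob, a single-strand DNA binding protein of meiotic recombination, had no peak, 3.82 and 2.76 at P7 and 3.37, 3.68 and 3.62 at P14, with overlap. Stra8, the retinoic acid target that starts meiosis, had no peak, 3.14 and 3.53 at P7 and 2.69, 3.26 and 3.47 at P14, also with overlap. Of 14 genes of the synaptonemal complex and the meiotic cohesins, 1 was kept, 8 were gained and 1 was lost (57.1% gained, against 35.7% of all genes). Of the 14, 5 had 3 P14 and 0 P7 lists, as did 8.91% of all genes. Sycp2, of the axial element, had 4.38, 4.44 and 5.18 at P14, and Trip13, an ATPase that remodels meiotic axes, 5.11, 4.06 and 3.97, both with no listed peak at P7. Sycp3, also of the axial element, had 4.72, 4.38 and 3.38 at P14 and none at P7. The cohesin gene Rad21l had 3.95, 3.48 and none at P7 and 3.71, 4.98 and 3.45 at P14, with overlap. H3K27ac was called at 4 of these 14 promoters at P7 and at 14 at P14, and at 30.9% and then 48.9% of all promoters. Of 28 genes of pachytene and spermatid stages, 3 were kept and 7 gained, so 35.7% were marked at P14, below the 49.0% of all genes. Hspa2, the testis heat shock protein, went from 2.91, 3.07 and 2.74 to 4.01, 4.08 and 4.90 without overlap.

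Stem cell genes were marked at shares near those of all genes. Of 20 genes of spermatogonial stem cell self-renewal, 2 were kept, 6 gained and 1 lost, and 15.0% were marked at P7 and 40% at P14, against 15.3% and 49.0% of all genes. Taf4b, a subunit of the general transcription machinery, had 3.23, none and 2.76 at P7 and 3.40, 3.74 and 4.11 at P14. Etv5, an ETS factor downstream of GDNF, had 3.29, 2.78 and none at P7 and 4.10, 4.88 and 2.96 at P14, with overlap. Id4, a marker of stem cells, was listed in 1 P7 list at 2.76 and in 2 P14 lists at 2.99 and 3.45. The lost gene was Lhx1, with 2.80, 2.73 and none at P7 and 2.62 in 1 P14 list. Of 18 genes of spermatogonial differentiation, 3 were kept and 10 gained (72.2% marked at P14). Kit, the receptor that marks differentiating spermatogonia, was not listed at P7 and stood at 3.16, 3.29 and 2.76 at P14. Of 16 germ cell identity genes, 2 were kept and 6 gained (50% marked at P14). Piwil2, of the piRNA pathway, had 3.79, 2.76 and 2.37 at P7 and 2.99, 3.76 and 3.37 at P14, and Dazl none, 3.67 and 3.07 and then 4.26, 3.40 and 4.09, both with overlap. Of the 9 genes that the study drew as browser tracks, 2 were kept, 4 gained and 1 lost, and they were picked by the study on these samples.

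Splicing and cell cycle genes were among the most widely marked. Of 28 splicing genes, which are SR and hnRNP factors with Bud31, Ddx5, U2af1, U2af2 and Sf3b1, 7 were kept, 19 gained and 0 lost, so 92.9% were marked at P14 against 49.0% of all genes. Hnrnpk had 3.45, 3.92 and 4.21 at P7 and 4.31, 5.73 and 4.87 at P14, without overlap. Hnrnpa2b1 had 3.36, 4.36 and 5.95 at P7 and 4.79, 5.53 and 6.01 at P14, with overlap. Of 22 genes of replication licensing and the cell cycle, 5 were kept and 15 gained (90.9% marked at P14). The kinase gene Aurka, a kept one, was at 3.25, 3.53 and none and then 5.83, 5.0 and 5.65. H3K4me3 was called at all 28 splicing and all 22 cell cycle promoters at both ages. Of all genes with H3K4me3 at both ages, a mean of 69.0% had a summit in a single P14 list. Of those with H3K27ac at both ages, 82.5% did. Of 47 cytosolic ribosomal protein genes, 8 were kept, 23 gained and 1 lost (66.0% marked at P14), and Rpl7 went from 3.95, 3.06 and 3.57 to 4.41, 4.49 and 5.36. Among 22 Polycomb and Hox targets, which are largely silent in germ cells, 1 was kept, 8 gained and 2 lost, and the 36.4% gained are close to the 35.7% of all genes. Of 15 olfactory and keratin genes 2 were gained (13.3%).

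**Figure D4:**
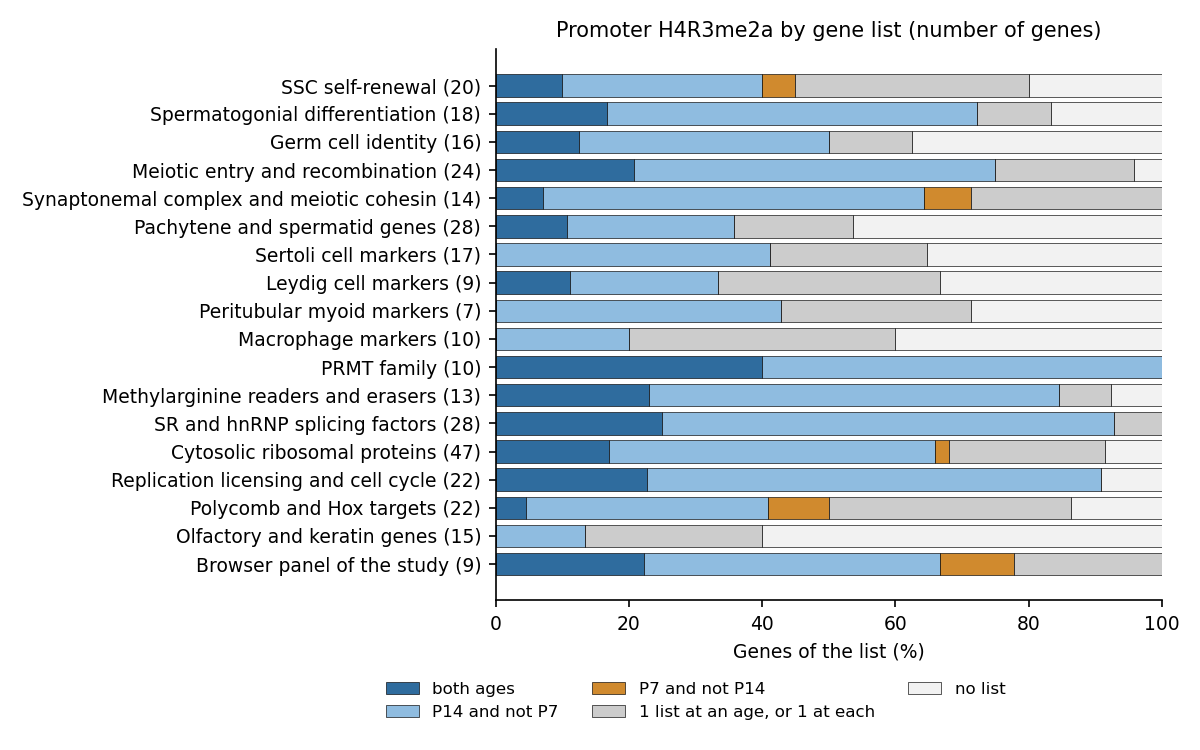
Share of the genes of each list (horizontal axis, %) whose promoter H4R3me2a was marked at both ages (kept), at P14 and not P7 (gained), at P7 and not P14 (lost), in at most 1 list of each age (dark grey) or in no list (light grey), with the number of genes found in brackets. The PRMT family with Ndufaf7, the splicing genes and the cell cycle genes have 100%, 92.9% and 90.9% marked at P14, and the olfactory and keratin genes 13.3%.

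Markers of the other cells of the testis were measured the same way. Of 17 Sertoli markers, 0 were marked at P7 and 7 at P14, all gained (41.2%, against 49.0% of all genes), with Sox9 at 2.69, 3.16 and 3.12 and Gata4 at 3.48 in 1 P7 list and 3.71, 2.58 and 4.52 at P14. H3K4me3 was called at 16 of the 17 at P7 and at 15 at P14. Of 9 Leydig markers 1 was kept and 2 were gained, of 7 peritubular myoid markers 3 were gained, and of 10 macrophage markers 2 were gained, with Cd14 at 3.11, 2.92 and 3.94 at P14. The part of other cells in the differences between the ages was not tested. Of the 16 germ cell identity genes, H3K4me3 was called at 10 at P7 and 15 at P14, and at 60.7% and 63.1% of all genes.

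Genes expressed at P7 held a summit more often than silent ones, at both ages. RNA was measured at P7 only, so no change of expression can be set beside the change of the mark. The 3 bulk libraries are labelled as spermatogonia, but the protocol says that their RNA was taken from testis, while the 2 Smart-seq2 libraries were made from isolated spermatogonia. For sorting, the methods of the study name Cre-carrying Prmt1 heterozygous and Prmt1-deleted males. The Smart-seq2 libraries labelled WT may therefore be from heterozygous animals. The study also says that its RNA samples were collected after tamoxifen injections. By the mean of the bulk libraries, 5.18% ± 0.393 of genes under 0.1 TPM had a promoter summit in a P7 list and 13.1% in a P14 list. Of those at 20 to 100 TPM, 29.8% ± 0.973 and 71.4% did. At 100 TPM or more the shares were 28.9% ± 1.5 and 68.9%. In the 3 bulk RNA libraries of P7 the median was 24.9 to 27.6 TPM for kept genes, 17.9 to 19.4 TPM for gained genes and 10.6 to 10.8 TPM for lost ones. It was 0 for genes in no list, and 5.58 to 6.10 TPM for all genes. In the Smart-seq2 libraries the median was 19.5 and 17.8 TPM for kept, 12.2 and 11.6 TPM for gained, 3.20 and 1.37 TPM for lost and 1.53 and 0.48 TPM for all genes. Of the genes gained at P14, 83.1% reached 1 TPM in the first bulk library, against 62.4% of all genes, and 72.1% and 68.3% did in the Smart-seq2 libraries, against 51.5% and 48.6%.

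Starts with H3K4me3 at both ages held a summit more often than those without. Of these 13015 genes, 28.0% ± 1.08 had a summit at P7 and 69.0% at P14, while of 7796 genes with H3K4me3 at neither age 6.76% ± 0.339 and 15.1% did. H3K4me3 was called at P7 at 85.9% of gained, 92.5% of kept and 60.7% of all promoters. H3K27ac was called at 48.8% of gained promoters at P7 and at 73.8% at P14, a rise that all promoters shared, from 30.9% to 48.9%. Of genes with observed-to-expected CpG over 0.6 around the start, a mean of 28.0% had a promoter summit in a P7 list and 70.0% in a P14 list, and of the others 13.3% and 31.1%.

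The X chromosome was marked thinly at both ages. It takes up 6.28% of the genome and held 0.667%, 0.599% and 0.622% of the peaks at P7 and 0.596%, 0.727% and 0.716% at P14, with overlap (exact permutation p = 0.4). Among peaks with a q-value of at most 0.01 the share was 1.87%, 2.03% and 1.34% at P7 and 0.728%, 0.730% and 0.710% at P14, without overlap. Male cells have a single X. In the WT lists H3K4me3 had 3.41% to 3.72% of its peaks there, and H3K27ac 1.47% to 2.11%. H3R2me2a had 0.492% to 0.965%, H3R8me2a 0.717% to 0.928% and H4R3me1 0.448% to 0.708% there. H4R3me2s had 1.28% and 1.35% at P7 and 0.624% to 1.04% at P14. Of 948 X-linked genes, 1.27%, 1.48% and 1.37% had a promoter summit in the P7 lists and 10.3%, 15.8% and 13.6% in the P14 lists. On the autosomes the means were 20.8% and 50.4%. The X-linked share was 6.58% ± 0.316 of the autosomal share at P7 and 26.1% ± 3.87 at P14. Among genes with H3K4me3 at P7 it was 9.29% ± 1.13 and 34.2% ± 4.63. H3K27ac was called at 13.0% and then 37.0% of X-linked promoters and at 32.0% and then 49.8% of autosomal ones.

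**Figure D5:**
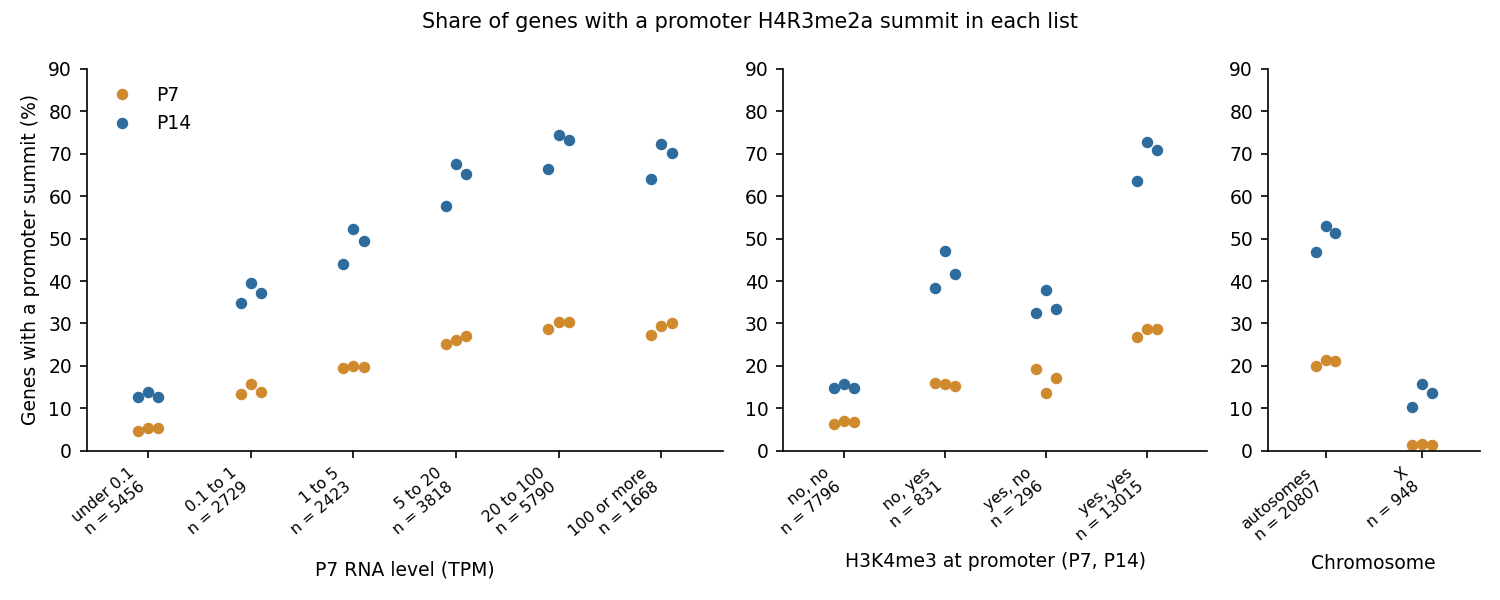
Share of genes with a promoter H4R3me2a summit in each list (vertical axis, %), by RNA level at P7, presence of H3K4me3 at P7 and P14, and chromosome (horizontal axis, with the number of genes), 1 point per list, coloured by age. The P14 points lie above the P7 points in each set drawn, and X-linked genes lie at 1.27% to 1.48% at P7 and 10.3% to 15.8% at P14.

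The growth of the H4R3me2a lists was set against that of the other 6 marks. The log2 change of peak number from P7 to P14 was 1.24 for H4R3me2a, 1.39 for H3R2me2a, 1.04 for H3R8me2a, 0.87 for H3K27ac, 0.48 for H3K4me3, 0.41 for H4R3me1 and -0.16 for the symmetric mark H4R3me2s. The difference from H4R3me2s was 1.41 (exact permutation test of the mark labels within each age, 200 arrangements, p = 0.005, Benjamini-Hochberg adjusted p = 0.09 over 18 tests), and that from H4R3me1 was 0.84 (exact permutation p = 0.01 of 100 arrangements, adjusted p = 0.09). The H4R3me2s lists stood apart, with a background pileup of 0.222 in 4 of 5 lists and 1.0 in 1 P14 list, and with 19838 and 35939 peaks in the 2 P7 lists. The difference from H3R2me2a was -0.15 (exact permutation adjusted p = 0.84). Among peaks with a q-value of at most 0.01 the change was 2.18 for H4R3me2a, 3.55 for H3R2me2a and 0.35 for H4R3me2s, and the difference from H3R2me2a was -1.37 (exact permutation adjusted p = 0.18). No test of peak number, promoter share or median width reached an adjusted p of 0.05, and the other marks have 2 or 3 lists per age.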

How the data were processed

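CUT&Tag libraries were trimmed, aligned to mm10 and peak-called per sample by the authors, with fastp 0.23.2 and MACS2 2.1.0 per the submitters' processing notes. Each deposited peak carries a fold enrichment over the local background (a ratio) and the −log10 of its p-value and q-value as the authors' peak caller gave them. Expression was deposited as TPM, computed by the authors, for 3 bulk and 2 low-input libraries of P7 cells labelled WT. The authors' lists were used as deposited, on chromosomes 1 to 19, X and Y. Tag totals are not given in the lists. The pileup at each summit was solved from fold and p-value, within 0.001 of the −log10 p-value.

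Regions were merged over the 6 lists (overlap of 1 bp), and a region or gene was called at an age from 2 of 3 lists. Promoters used GENCODE vM21 and 3000 bp. Shares of peaks and regions used the starts of all transcripts, and gene counts and start distances those of protein-coding genes. Lists were compared by two-sided exact permutation tests. Genes were named by rank of the weakest list (10 in all 6 lists, 10 in 3 P14 and 0 P7 lists, 5 in the reverse) and up to 4 for each of 18 gene lists, ordered by number of lists, and 1 gene so named is not reported here. Other members given (Sycp3, Kit, Lhx1, Prmt5 among them) were chosen after their values were seen. Members and lists were chosen with earlier results of these data known. Sequences came from GRCm38 and RefSeq. Python 3.11.15, numpy 2.4.6, pandas 2.3.3, scipy 1.17.1 and pysam 0.24.0 were used, and scripts were tested on simulated data.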

Additional observations from a re-analysis of the deposited data

How the results depend on the processing

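Of 286 recomputed values with a test, 276 kept their direction, and 38 of 78 counts stayed within 1.5 times. The first count says little about robustness, since many of its values could not reverse. Those with the replicate number as a block reuse the same difference. Where the ages did not overlap, leaving out a list mostly cannot change the direction. The side of the 0.05 threshold was compared only for the tests against other marks, since no 3 against 3 test can pass it. The X share of peaks reversed to -1.02 points at a q-value of at most 0.01 and -0.0278 with lists of equal length. The exon share reversed to -0.502 with equal lengths and -0.0510 with promoters of 1000 bp, and leaving out a list gave -0.0185 to 0.185. Against H3R2me2a and H4R3me1 the difference in promoter share reversed to 6.64 and 0.447 at a q-value of at most 0.01, and against H4R3me2s that in median width to 26 bp. Against H3R8me2a the promoter share gave -1.19 to 0.196 when a list was left out. The cause of these was not tested.

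Kept, gained and lost regions numbered 1361, 6423 and 524 when all 3 lists were needed, 15996, 78049 and 27966 when 1 sufficed, and 720, 4321 and 217 at a q-value of at most 0.01. Equal lengths gave 6281 gained. Kept and lost genes numbered 771 and 162 with all 3 lists, 7901 and 864 with 1, and 1914 and 243 with promoters of 1000 bp. At a q-value of at most 0.01, kept, gained and lost genes were 163, 4091 and 25, and equal lengths gave 4512 gained and 986 lost. Leaving out 1 list, where both remaining lists of that age are needed, gave 2263 to 3180 kept, 8343 to 18393 gained and 855 to 2961 lost regions, and 1525 to 2595 kept, 5073 to 9218 gained and 165 to 880 lost genes. Gained stayed above lost in each of these settings.

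Leaving out places with a peak in all lists of other marks, chosen after seeing the data, gave 3500, 16797 and 2164 regions. Replicate numbers did not pair the lists. With the replicate number as a block the difference in promoter share was 5.2 points (exact sign-flip permutation p = 0.25, the smallest 3 pairs allow). Depth limits the lists to summits of at least 6 tags, so an unlisted place may be marked below that.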
